A study of Mus musculus with 3 samples.

Results

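Apolipoprotein E (Apoe), clusterin (Clu) and the lipid transporter genes Abca1, Abca8a and Abca6 were examined in single cells of the mouse retina. These 5 genes, of 18545 in the deposited matrix, were taken as listed and followed in every cell cluster and in each of the 3 libraries. The study asked how a diet with tamsulosin, metoprolol and bromocriptine (TMB) affects retinal degeneration in rd10 mice, a strain with a mutation in the rod phosphodiesterase gene Pde6b whose rods degenerate. The 3 groups were wildtype C57BL/6J mice, labelled both non-treated and vehicle and fed base chow (WT, a pool from 2 females and 2 males), female rd10 mice on the same base chow (rd10-vehicle) and female rd10 mice fed TMB (rd10-TMB), all 8 weeks old and kept in darkness throughout life, which slows the rd10 degeneration. Per the labels, retinas of 4 mice, 1 from each, were pooled for each group, while the study's text gives fewer mice for the rd10 groups. The pools were dissociated with papain, and each group gave 1 library of 10x Genomics 3′ tags. The rd10 mutation cannot be checked from such tags.

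Apolipoprotein E and clusterin are the main protein parts of the lipoprotein particles that glia secrete, and they carry cholesterol and phospholipid between cells. ABCA1 loads cholesterol and phospholipid onto apolipoproteins at the plasma membrane, and its gene is a classical target of the liver X receptors (LXR), nuclear receptors that respond to oxidised sterols. ABCA6 and ABCA8 belong to a mammalian subfamily of ABCA transporters that is less well understood, and their genes lie in 1 run on a chromosome. Müller glia (MGs) are the radial glia that span the retina and supply its neurons. Neurons take lipoproteins up through receptors of the LDL receptor family.

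In GRCm38.p6 (mm10), Apoe lies on chr7:19696244-19701310 on the minus strand, next to another apolipoprotein gene, Apoc1. Clu lies on chr14:65968483-65981548 on the plus strand and Abca1 on chr4:53030789-53159988 on the minus strand. Abca8a (chr11:110025634-110097580) and Abca6 (chr11:110174638-110251776) lie on the minus strand of chr11 in a run of 5 consecutive ABCA genes, in the order Abca8b, Abca8a, Abca9, Abca6 and Abca5. Tags from the 3′ end fall in the last exons. The last 500 bases of the genes' protein-coding transcripts were therefore cut into overlapping stretches of 31 bases and looked up in every annotated transcript. None of these stretches of Apoe, Clu, Abca1 or Abca6 occurred in another gene, and 9 of 1396 (0.645%) of those of Abca8a occurred in Abca8b, so reads of this close pair can be split with little ambiguity.

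The RefSeq promoter windows (250 bases before the annotated start and 50 after it) of the 3 genes with an entry, of the 5, are printed because they stand for the 3 patterns described below, a secreted particle protein that was higher in rd10 MGs (Apoe), a transporter read in nearly all cell types (Abca1) and a transporter that was lower in rd10 MGs (Abca8a). Clu and Abca6 had no entry. The windows are chr7:19699139-19699438 for Apoe (the first of 3 windows listed for it), chr4:53159846-53160145 for Abca1 and chr11:110095888-110096187 for Abca8a, all in GRCm38.p6 and read on the minus strand. Capitals mark matches, on either strand, to the TATA box letters TATAAA, the GC box letters GGGCGG or the nuclear receptor half-site letters AGGTCA, and these motifs do not overlap one another.
Apoe: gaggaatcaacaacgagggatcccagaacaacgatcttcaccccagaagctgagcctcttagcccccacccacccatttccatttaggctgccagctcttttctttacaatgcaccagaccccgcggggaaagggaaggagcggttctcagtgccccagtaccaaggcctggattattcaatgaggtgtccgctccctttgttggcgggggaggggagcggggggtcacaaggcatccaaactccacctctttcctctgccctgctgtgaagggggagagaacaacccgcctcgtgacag
Abca1: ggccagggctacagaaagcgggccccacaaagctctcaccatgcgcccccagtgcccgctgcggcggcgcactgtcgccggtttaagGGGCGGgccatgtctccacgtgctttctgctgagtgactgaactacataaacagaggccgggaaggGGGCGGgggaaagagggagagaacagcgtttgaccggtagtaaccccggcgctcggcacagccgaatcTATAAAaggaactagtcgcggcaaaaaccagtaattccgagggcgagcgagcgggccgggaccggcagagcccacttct
Abca8a: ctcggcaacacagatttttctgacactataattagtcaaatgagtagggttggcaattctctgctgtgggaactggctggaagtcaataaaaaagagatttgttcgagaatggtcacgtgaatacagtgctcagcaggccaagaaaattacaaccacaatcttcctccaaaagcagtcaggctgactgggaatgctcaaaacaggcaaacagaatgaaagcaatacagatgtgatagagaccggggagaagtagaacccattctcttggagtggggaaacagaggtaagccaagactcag
The Abca1 window held 1 TATAAA and 2 GGGCGG. The Apoe and Abca8a windows held none of the 3 motifs. Of 32851 promoter windows of this length, 13.6% held TATAAA, 35.7% held GGGCGG and 16.3% held AGGTCA. The GC content was 57.7% for Apoe, 62.7% for Abca1 and 44.3% for Abca8a, against a median of 52.7% over all windows. These matches describe letters only.

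The matrix held 4478 WT, 5952 rd10-vehicle and 4812 rd10-TMB cells with 18882951, 37002532 and 29192530 unique molecular identifiers (UMIs, 1 per captured RNA molecule). Any 2 libraries shared 7 to 10 cell barcodes. The study's cluster 0 is called Müller glia-like here because all 10 MG markers (Rlbp1, Glul, Slc1a3, Aqp4, Dkk3, Kcnj10, Sox9, Car14, Mlc1 and Gpr37) were enriched in it. It held 530 WT, 2492 rd10-vehicle and 1748 rd10-TMB cells, which is 11.8%, 41.9% and 36.3% of cells and 17.6%, 60.0% and 57.5% of all UMIs of the 3 libraries. The median MG carried 6300 UMIs in WT, against 8594 in rd10-vehicle and 9455 in rd10-TMB. Levels are given as UMIs per 1000000 UMIs of the same cluster and library (CPM), with exact Poisson 95% intervals. A 3′ tag counts 1 molecule whatever the length of the transcript, so levels of different genes can be set side by side. With 1 library per group there is no replicate error and no test between groups, intervals cover counting error only, and effects of mice, litter, sex of the pool and library cannot be told apart from the group.

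Clu had the largest upward difference of the 5 genes between rd10-vehicle and WT MGs. Its order against Abca1 is not resolved, as the interval of the Abca1 log2 ratio (0.18 to 0.95) held that of Clu. The level of Clu is given first. Its level was 4046 CPM (95% interval 3978 to 4115) in WT, against 6757 (6723 to 6792) in rd10-vehicle and 5217 (5182 to 5251) in rd10-TMB MGs. The 3 intervals did not overlap, with rd10-TMB between the other libraries. The rd10-vehicle level was 1.67-fold the WT level, a log2 ratio of 0.74 (exact conditional 95% interval 0.71 to 0.77). The log2 ratio was 0.37 (0.34 to 0.39) for rd10-TMB over WT and -0.37 (-0.39 to -0.36) for rd10-TMB over rd10-vehicle. When the WT pool was limited to the 245 MGs with an Xist UMI and no Y-linked UMI, as the rd10 mice were all female, the rd10-vehicle over WT log2 ratio of Clu was 0.56 and no longer past 1.5-fold, and the rd10-TMB over WT log2 ratio was 0.19.

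Apoe was among the most abundant RNAs of MGs, with rank 3 by UMIs in each of the 3 libraries. It was counted at 18625 CPM (18478 to 18772) in WT, against 24577 (24512 to 24643) in rd10-vehicle and 24466 (24391 to 24541) in rd10-TMB MGs. Both rd10 libraries were therefore above WT and lay close to each other. The log2 ratios over WT were 0.40 (0.39 to 0.41) for rd10-vehicle and 0.39 (0.38 to 0.41) for rd10-TMB, short of 1.5-fold. Between the rd10 libraries the log2 ratio was -0.0066 (-0.012 to -0.000715), and its sign depended on the scaling, so no direction is read from it.

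The difference was spread over the MG population and not carried by a few cells. Per 10000 UMIs of a cell, the median MG held 170 Apoe UMIs in WT and 237 in each rd10 library. The middle 80% of cells ran from 106 to 264 in WT, 155 to 356 in rd10-vehicle and 155 to 359 in rd10-TMB. The WT median was exceeded by 85.2% of rd10-vehicle and 85.0% of rd10-TMB MGs. For Clu the medians were 36.8, 63.3 and 46.4 UMIs per 10000 in WT, rd10-vehicle and rd10-TMB. The WT median of Clu was exceeded by 91.9% of rd10-vehicle and 72.3% of rd10-TMB MGs. Thinned to 1000 UMIs per cell, at least 1 Apoe UMI was found in 99.6%, 100% and 99.9% of MGs, and at least 1 Clu UMI in 95.4%, 98.7% and 97.8%.

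The ABCA genes split. Abca1 was a rare RNA in MGs, at 19.3 CPM (14.8 to 24.6; 64 UMIs) in WT, against 28.3 (26.1 to 30.6; 628 UMIs) in rd10-vehicle and 27.6 (25.1 to 30.2; 463 UMIs) in rd10-TMB. Its log2 ratios over WT were 0.53 (0.18 to 0.95) for rd10-vehicle and 0.50 (0.14 to 0.92) for rd10-TMB, and the wide intervals come from the 64 WT UMIs. Between the rd10 libraries the interval of the log2 ratio ran from -0.21 to 0.14 and held 0.

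Abca8a was by far the most abundant ABCA gene of MGs, and it was lower in both rd10 libraries. It was counted at 1034 CPM (1000 to 1069) in WT, against 757 (745 to 768) in rd10-vehicle and 826 (812 to 840) in rd10-TMB MGs. WT was highest, rd10-vehicle lowest, and no intervals overlapped. The log2 ratio was -0.45 (-0.50 to -0.40) for rd10-vehicle over WT and -0.32 (-0.38 to -0.27) for rd10-TMB over WT. It was 0.13 (0.093 to 0.16) for rd10-TMB over rd10-vehicle.

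Abca6 had the largest difference of the 5 genes in either direction. Its level was 58.1 CPM (50.2 to 66.9; 193 UMIs) in WT, against 19.1 (17.3 to 21.0; 423 UMIs) in rd10-vehicle and 26.2 (23.8 to 28.8; 440 UMIs) in rd10-TMB MGs. WT stood well above both rd10 libraries and no intervals overlapped. Abca6 was 3.06-fold lower in rd10-vehicle than in WT, a log2 ratio of -1.61 (-1.86 to -1.36), and 2.22-fold lower in rd10-TMB than in WT, a log2 ratio of -1.15 (-1.40 to -0.90). The rd10-TMB level was 1.38-fold the rd10-vehicle level, a log2 ratio of 0.46 (0.26 to 0.66). Only 49 of the 12404 genes tested had a lower rd10-vehicle over WT ratio. Thinned to 1000 UMIs per cell, an Abca6 UMI was found in 7.02% of MGs from WT (exact binomial interval 4.99 to 9.55), in 2.46% (1.89 to 3.15) of those from rd10-vehicle and in 3.18% (2.41 to 4.13) of those from rd10-TMB. Without thinning these shares were 27.9%, 14.6% and 19.9%, from MGs that were deeper in the rd10 libraries. For Abca8a the thinned shares were 61.1%, 53.0% and 55.8%.

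**Figure D1:**
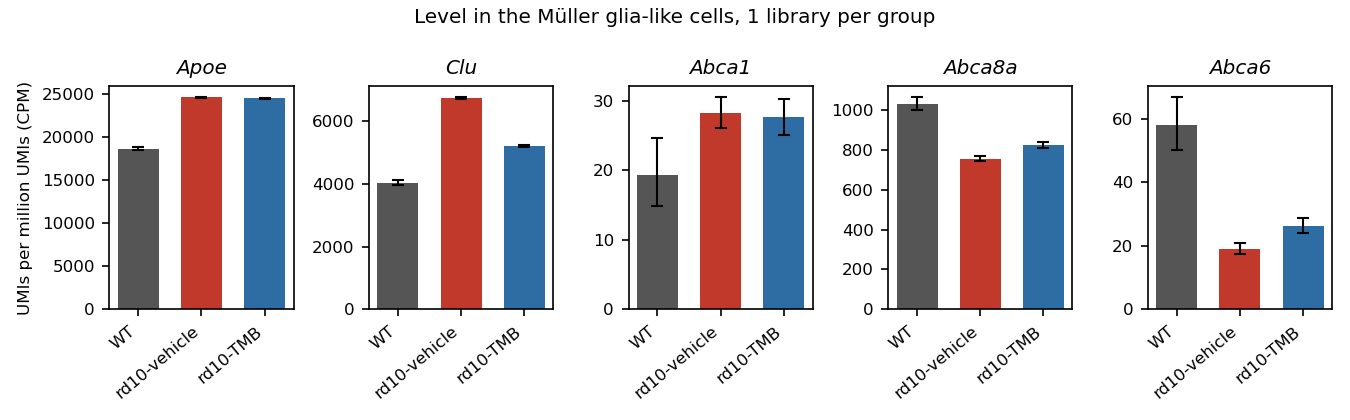
Level of each of the 5 genes in Müller glia-like cells, 1 panel per gene with CPM on a linear y axis that starts at 0 and the 3 libraries on the x axis. Bars give the CPM of the 1 library per group and error bars the exact Poisson 95% interval (counting error only). Clu was highest in rd10-vehicle (6757 CPM), and Abca8a and Abca6 were highest in WT (1034 and 58.1 CPM).

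Read against all genes, the 5 stood as follows. A gene was tested in MGs when the pair of libraries held at least 50 UMIs of it, and was counted as higher or lower when its ratio reached 1.5-fold. For rd10-vehicle over WT, 1 of the 5 genes was higher (Clu) where 8.64% of all 12404 genes were, and 1 of 5 was lower (Abca6) where 9.31% of all genes were. For rd10-TMB over WT, 0 of 5 were higher against 6.64% of 11945 genes, and 1 of 5 was lower (Abca6) against 8.46%. For rd10-TMB over rd10-vehicle, 0 of 5 passed in either direction, against 1.1% higher and 2.2% lower among 13021 genes. The 3 comparisons share libraries, so they are not independent. Of the calls for rd10-TMB over WT, 44.0% were on the higher side, and with median-of-ratios scaling 56.8% were. For Clu the scaling did not change the direction in any of the 3 comparisons.

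The neighbours of Abca8a and Abca6 on chr11 were examined beside them. Abca8b, a close paralogue of Abca8a, was counted at 236, 144 and 161 CPM in WT, rd10-vehicle and rd10-TMB MGs. Abca5, a lysosomal member of the family, was counted at 103, 70.4 and 70.9 CPM. For rd10-vehicle over WT the log2 ratios along the run were -0.71 for Abca8b, -0.45 for Abca8a, -1.61 for Abca6 and -0.56 for Abca5, and for rd10-TMB over WT they were -0.55, -0.32, -1.15 and -0.55 in the same order. All 4 were below 0 in both comparisons, and Abca6 was the lowest. For rd10-TMB over rd10-vehicle the same 4 genes had log2 ratios of 0.16, 0.13, 0.46 and 0.01. Abca9, between Abca8a and Abca6, had 4 UMIs in WT MGs (1.2 CPM), 43 in rd10-vehicle (1.94 CPM) and 30 in rd10-TMB (1.79 CPM). Its log2 ratio was 0.40 (-0.78 to 2.62) for rd10-vehicle over WT and 0.29 (-0.94 to 2.54) for rd10-TMB over WT, below the minimum of 50 UMIs and with no direction resolved, and -0.10 (-0.84 to 0.59) for rd10-TMB over rd10-vehicle.

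**Figure D2:**
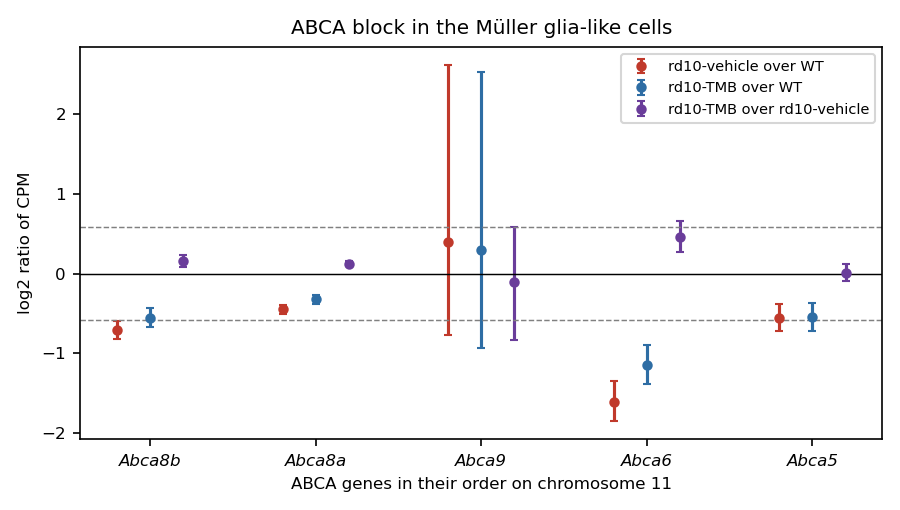
Log2 ratio between libraries in Müller glia-like cells (y axis) for the consecutive ABCA genes of chr11 in their order on the chromosome (x axis), with points for the 3 comparisons and bars for the exact conditional 95% interval (counting error only). Dashed lines mark 1.5-fold. Abca9 is drawn although it had under 50 UMIs against WT, and its intervals are wide. For both comparisons with WT the other 4 genes lie below 0, Abca6 lowest at -1.61 and -1.15, while for rd10-TMB over rd10-vehicle these 4 lie between 0.01 and 0.46.

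Of the 16 ABCA genes listed, 9 had enough UMIs for rd10-vehicle over WT. Of these, 0 were higher and 3 were lower (Abca2, which lies on another chromosome, at -0.59, and Abca6 and Abca8b), with a median log2 ratio of -0.45 against -0.06 over all genes, of which 8.64% were higher and 9.31% lower. Abca4, the photoreceptor retinoid transporter, had 40 UMIs in WT MGs and was higher in rd10-TMB than in WT at 0.68, with rods as its highest cluster in all libraries. That was the 1 of 9 ABCA genes on the higher side in that comparison, where 1 of 9 (Abca6) was lower, the median was -0.43, and 6.64% of all genes were higher and 8.46% lower. Between the rd10 libraries 0 of 10 passed in either direction, where 1.1% of all genes were higher and 2.2% lower, so nothing is read from it.

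Among 12 builders and exporters of lipoprotein particles, 8 had enough UMIs for rd10-vehicle over WT, with a median log2 ratio of 0.36. Of these 8, 2 were higher, Clu and Apoc1, the small apolipoprotein encoded beside Apoe, and 2 were lower, Apoa1 at -0.80 (11 UMIs in WT) and the sterol exporter Abcg4 at -0.70 (35 UMIs in WT), against 8.64% higher and 9.31% lower over all genes. Apoc1 was counted at 33.4 CPM in WT, against 76.2 in rd10-vehicle and 90.7 in rd10-TMB MGs, a log2 ratio of 1.18 (0.91 to 1.48) for rd10-vehicle over WT and 1.43 (1.16 to 1.73) for rd10-TMB over WT. Apoc1 thus differed more from WT than Apoe did, at a far lower level. For rd10-TMB over WT, 1 of 8 was higher (Apoc1) and 1 was lower (Abcg4, at -0.62), against 6.64% and 8.46% over all genes. For rd10-TMB over rd10-vehicle 1 of 9 was higher (Apoa1, at 0.69, on 55 UMIs in rd10-TMB and 45 in rd10-vehicle) and 0 were lower, against 1.1% higher and 2.2% lower over all genes.

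Of 12 lipoprotein receptors and regulators with enough UMIs, 1 was higher in rd10-vehicle than in WT (Mylip, an LXR target that marks the LDL receptor for degradation, at 0.96) and 0 were lower, with a median of -0.01, and this share is near the 8.64% of all genes that were higher. For rd10-TMB over WT, 2 of 12 were higher (Mylip at 0.66 and Vldlr, a receptor for apolipoprotein E particles, at 0.60) and 0 were lower, against 6.64% higher over all genes. Lrp1, a large endocytic receptor for apolipoprotein E, was level at 144, 153 and 150 CPM in WT, rd10-vehicle and rd10-TMB MGs. In the LXR and RXR list, 2 of 9 genes were higher in each rd10 library than in WT (Mylip again, and the retinoid X receptor Rxrg at 1.13 and 1.27) and 0 were lower, against 8.64% of all genes higher for rd10-vehicle and 6.64% for rd10-TMB. In the list for lipid storage and lysosomal handling, 1 of 6 was higher in rd10-vehicle than in WT (Fabp5, a fatty acid carrier, from 5.12 to 29.4 CPM, a log2 ratio of 2.44) and 1 was lower (Npc1, a lysosomal cholesterol exporter, at -0.63), against 8.64% and 9.31% of all genes. For rd10-TMB over WT these 2 genes were again the ones past 1.5-fold, Fabp5 at 21.6 CPM and Npc1 at a log2 ratio of -0.59, against 6.64% higher and 8.46% lower over all genes. Counts over lists this short rest on 1 or 2 genes and nothing particular to a list is read from them. Between the rd10 libraries no gene of these 3 lists was past 1.5-fold, where 1.1% of all genes were higher and 2.2% lower.

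Lcn2 (lipocalin 2) is a secreted protein that reactive glia make, and its UMIs were used to divide the MGs. After thinning to 1000 UMIs per cell, 4 WT, 330 rd10-vehicle and 117 rd10-TMB MGs were kept that held an Lcn2 UMI, and 523, 2146 and 1610 that held none. In rd10-vehicle, Clu was counted at 6492 CPM in cells without Lcn2 and 7452 in cells with it, and in rd10-TMB at 4868 and 6265. Apoe was counted at 24349 and 26536 CPM in rd10-vehicle, and at 24848 and 26265 in rd10-TMB. Both particle genes were therefore higher in the cells with Lcn2 in each rd10 library.

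Abca8a was lower in the cells with Lcn2, and so was Abca6 in rd10-vehicle. Abca8a was counted at 851 CPM in rd10-vehicle cells without Lcn2 and 533 in those with it, and at 911 and 581 CPM in rd10-TMB. Abca6 had 63 UMIs in the 2146 rd10-vehicle cells without Lcn2 (29.4 CPM) and 0 in the 330 with it, which allows up to 11.2 CPM. In rd10-TMB it had 55 UMIs (34.2 CPM) without and 1 UMI with Lcn2, and those intervals overlapped. Even without Lcn2, the rd10-vehicle MGs stayed above WT MGs without Lcn2 in Clu (WT 3985 CPM) and Apoe (WT 18207), and below them in Abca8a (WT 1046) and Abca6 (WT 76.5). Abca1 was counted at 28.0 and 39.4 CPM in rd10-vehicle cells without and with Lcn2, and its intervals overlapped. Cells with Lcn2 carried more UMIs before thinning, a median of 10259 against 8431 in rd10-vehicle and 12017 against 9374 in rd10-TMB. An Lcn2 UMI can be easier to catch in a deep cell, and the part of depth in the split was not tested beyond the thinning.

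**Figure D3:**
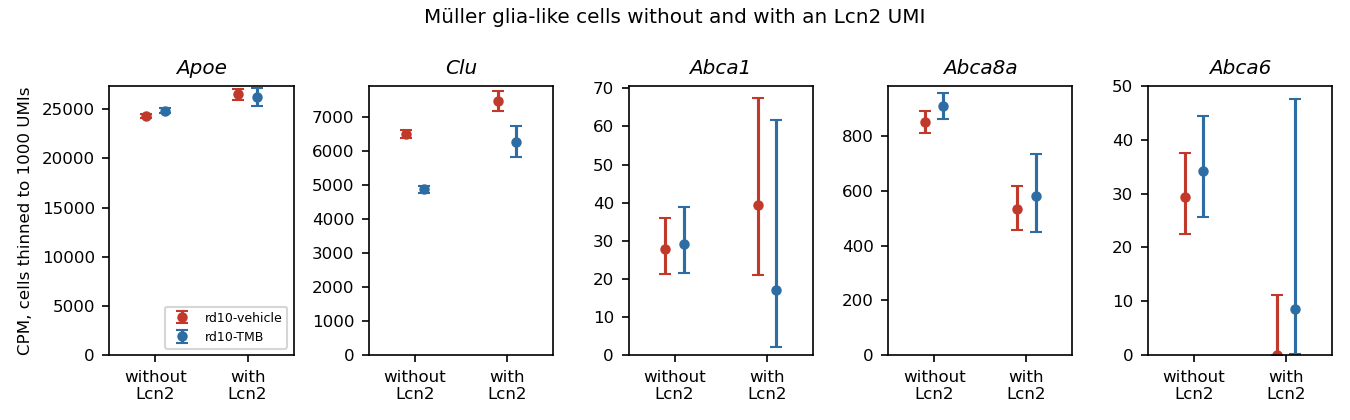
Level of each gene in Müller glia-like cells with and without an Lcn2 UMI (x axis) in the 2 rd10 libraries, thinned to 1000 UMIs per cell, as CPM on linear y axes that start at 0, with points for the libraries and bars for exact Poisson 95% intervals. In both libraries Apoe and Clu are higher and Abca8a is lower in the cells with Lcn2, and for Abca6 the intervals are apart in rd10-vehicle but overlap in rd10-TMB. WT is not drawn, as 4 of its cells held Lcn2.

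Markers of other cells were also counted in the MG cluster. The 8 rod markers summed to 884, 1296 and 1417 CPM in WT, rd10-vehicle and rd10-TMB MGs, with 0 of 8 at 0. The 10 microglia markers summed to 20.2, 24.8 and 27.4 CPM, with 5, 1 and 1 of them at 0. The 8 cone markers summed to 98.8, 212 and 261 CPM, with 1, 0 and 0 at 0. The 8 lens markers summed to 2.41, 35.6 and 25.7 CPM, with 4, 0 and 0 at 0, and lens-like cells, which were found in the rd10 libraries only, carry Clu. Rod, cone and lens markers were thus higher in the MGs of both rd10 libraries than in those of WT. The 7 astrocyte markers summed to 1506, 1747 and 1529 CPM, with 1, 1 and 2 at 0, of which Aqp4, an MG marker too, made up 1333, 1287 and 1193 CPM, so the rest of that list was also higher in both rd10 libraries. The median mitochondrial share of an MG was 5.44%, 6.14% and 6.48%. The MG markers themselves summed to 19628, 14972 and 16170 CPM, lower in both rd10 libraries than in WT. Their part in the differences was not tested.

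Across the retina, Abca8a and Abca6 were the most nearly restricted to MGs. Of all Abca8a UMIs of a library, 97.3%, 98.8% and 99.1% lay in MGs in WT, rd10-vehicle and rd10-TMB, and of Abca6 96.0%, 97.2% and 99.1%. For Apoe the shares were 91.4%, 91.5% and 94.4%, and for Clu 84.1%, 92.4% and 95.5%, so Clu was below Apoe in WT and above it in both rd10 libraries. For Abca1 the share was 19.6% in WT but 67.0% in rd10-vehicle and 65.2% in rd10-TMB, while its MG level differed far less, since MGs made up a larger part of the rd10 libraries. The clusters were made from variable genes of these same cells and Abca8a was among the 10 leading genes of the MG cluster, so these shares describe where the RNA lay and are no test of specificity.

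Apoe was highest not in MGs but in the microglia-like cluster, the resident macrophages of the retina. There it was counted at 39782 CPM in rd10-vehicle (52 cells) and 43147 in rd10-TMB (30 cells). In WT that cluster held 6 cells and all of its 69 Apoe UMIs came from 1 of them, so no WT level is given. Unnamed cluster 18 followed with 31219, 30916 and 35771 CPM in WT, rd10-vehicle and rd10-TMB, on 3, 23 and 6 cells, and 275 of the 344 WT UMIs came from 1 cell. MGs came next, at 18625 to 24577 CPM. Astrocyte-like cells, the glia of the nerve fibre layer, had 10258, 14835 and 14368 CPM, and the retinal pigment epithelium (RPE)-like cells had 11757, 14105 and 11454 CPM. The ranges of these last 2 clusters over the libraries overlapped, so their order is not resolved, while both lay below MGs in each library. Endothelial-like cells, which also carried pericyte markers, were far lower at 532, 703 and 816 CPM. In astrocyte-like cells as in MGs, both rd10 libraries were above WT.

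Clu had another order. RPE-like cells stood first with 7983, 10410 and 8638 CPM in WT, rd10-vehicle and rd10-TMB, above MGs in each library, on 13, 35 and 16 cells. Lens-like cells, found in the rd10 libraries only, had 7087 CPM in rd10-vehicle and 4135 in rd10-TMB, a range that overlapped that of MGs. Unnamed cluster 18 had 3449, 3404 and 4902 CPM on 3, 23 and 6 cells, and 25 of the 38 WT UMIs came from 1 cell. Astrocyte-like cells had 2972, 2972 and 2501 CPM, below MGs in each library, and showed none of the increase over WT seen in MGs. Microglia-like cells, highest for Apoe, had 52.7 CPM of Clu in rd10-vehicle. Their 280 CPM in rd10-TMB rested on 1 cell that held 64 of 65 UMIs, and without it the level was 4.6 CPM. In endothelial-like cells Clu was counted at 52.3, 48.2 and 37.4 CPM, where 55 of the 73 WT UMIs came from 1 cell.

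Abca1 was counted in many cell types, at levels that differed between them. RPE-like cells had 166, 115 and 118 CPM, on 8, 16 and 5 UMIs. Microglia-like cells had 68.2 CPM in rd10-vehicle and 64.7 in rd10-TMB, above the MG level with intervals that did not overlap it. Horizontal-like cells had 66.0 CPM in WT (24 UMIs over 18 cells), 145 in rd10-vehicle (4 UMIs over 4 cells) and 13.3 in rd10-TMB (1 UMI over 6 cells). Endothelial-like cells were level at 25.8, 26.0 and 25.4 CPM, which cannot be told from MGs within the intervals. Astrocyte-like cells had 6.17, 14.2 and 21.3 CPM on 2, 20 and 12 UMIs. Abca8a outside MGs was lower, with 24.7, 32.0 and 8.88 CPM in astrocyte-like cells. Lens-like cells had 70.5 CPM in rd10-vehicle (34 UMIs in 2 of 18 cells) and 188 in rd10-TMB (19 UMIs). Cluster 18 had 59.1 CPM in rd10-vehicle (19 UMIs) and 163 in rd10-TMB (10 UMIs), and RPE-like cells had 78.8 in rd10-vehicle (11 UMIs). Abca6 was counted in astrocyte-like cells with 1, 5 and 1 UMIs and in microglia-like cells with 0 in all libraries.

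**Figure D4:**
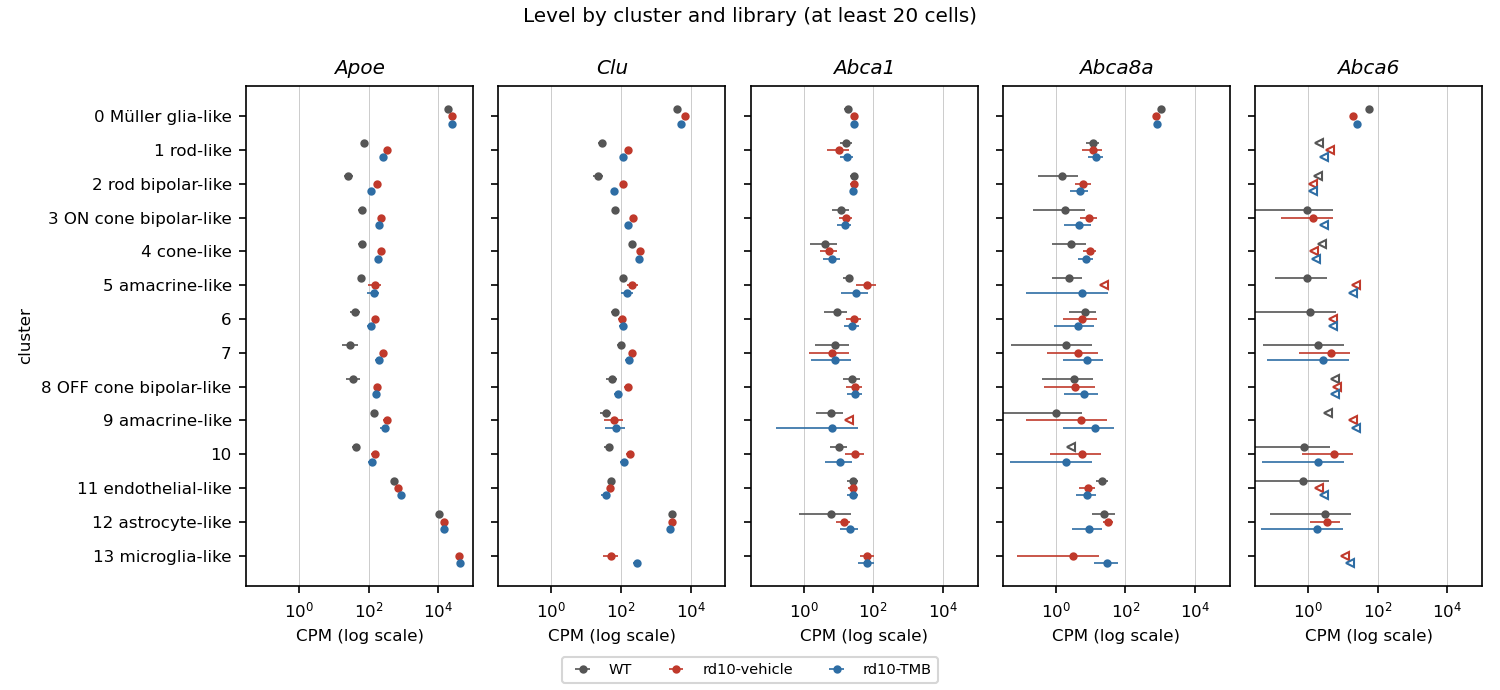
Level of each gene (x axis, CPM on a log scale) in clusters 0 to 13 (y axis), for clusters with at least 20 cells in a library. Points are the 3 libraries with exact Poisson 95% intervals, and open triangles mark the upper 95% limit where 0 UMIs were counted. Apoe is highest in microglia-like cells, Abca8a and Abca6 stand out in Müller glia-like cells, and Abca1 lies at or below 68.2 CPM in all clusters drawn.

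Dissociated cells release RNA that ends up in other droplets, and MG transcripts as abundant as Apoe can then be read in neurons. Each gene's level in a neuronal cluster was therefore expressed as a percentage of its MG level in the same library and set beside the same percentage for the 10 MG reference genes, the markers named above, since free RNA from 1 source keeps its genes in 1 ratio. There were 27 pairs of neuronal cluster and library with at least 50 cells. The median percentage of the reference genes ran from 0.174 to 0.637 in the 10 WT clusters, from 0.785 to 1.73 in the 9 rd10-vehicle clusters and from 0.533 to 1.34 in the 8 rd10-TMB clusters. Single reference genes reached far higher percentages in some clusters and set the upper end of the range there. Sox9 reached 30.4%, 33.5% and 34.2% in cluster 7 of WT, rd10-vehicle and rd10-TMB, Gpr37 reached 7.48%, 9.40% and 10.4% in rod bipolar cells (RBCs), and in cluster 9 of rd10-vehicle Dkk3 reached 22.9% and Slc1a3 9.51%. The counts were therefore also made with the 6 other reference genes, a choice made after seeing the data.

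Apoe in neurons lay within the range of the reference genes in all 27 pairs. Its percentages ran from 0.139 to 1.38 and exceeded the reference median in 9 of 27 pairs, of which 6 were among the 10 WT clusters, 2 among the 9 of rd10-vehicle and 1 among the 8 of rd10-TMB. The WT clusters reached up to 2.10-fold the median. That was in the amacrine-like cluster 9, at 143 CPM (139 UMIs in 88 of 295 cells), which is 0.768% against a median of 0.366%. In rd10-vehicle this cluster had 340 CPM on 62 cells. With the 6 other reference genes Apoe again exceeded every one in 0 of 27 pairs, and their median in 10. In rods Apoe was counted at 72.9 CPM in WT, against 325 in rd10-vehicle and 257 in rd10-TMB, which is 0.391%, 1.32% and 1.05% of the MG level, against reference medians of 0.637%, 1.73% and 1.34%. In RBCs it was counted at 26.0, 177 and 120 CPM. By this measure Apoe in neurons was not told apart from the MG background. The measure cannot show an excess where a single reference gene stands far above the rest, and whether some of these UMIs are the neurons' own was not tested. They were more frequent in rd10 neurons than in WT neurons, and the log2 ratio of Apoe for rd10-vehicle over WT was 2.15 (1.85 to 2.47) in rods, 2.74 (2.35 to 3.21) in RBCs and 1.80 (1.49 to 2.15) in cones. The sum of 8 reference genes, without Dkk3 and Gpr37 but with Sox9 and Slc1a3, had log2 ratios of 0.97, 1.45 and 1.74 in these clusters. In MGs themselves Apoe was higher in rd10-vehicle than in WT, while the 10 MG markers summed to 19628 CPM in WT and 14972 in rd10-vehicle. The MG levels that these neuronal ratios start from thus moved in opposite directions. The difference between the ratios of Apoe and of this sum was not tested.

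Clu in cones was above that background. In the cone-like cluster Clu was counted at 203 CPM in WT (289 UMIs in 172 of 278 cells), against 360 in rd10-vehicle (923 UMIs in 407 of 542 cells) and 329 in rd10-TMB (716 UMIs in 303 of 412 cells). That is 5.01% (4.45 to 5.62), 5.33% (4.99 to 5.68) and 6.32% (5.86 to 6.80) of the MG level. The highest of the 10 reference genes reached 0.745%, 1.61% and 1.59% in the same cells, and no single cell held more than 19 of the Clu UMIs in a library. Thinned to 1000 UMIs, 16.5%, 28.4% and 24.7% of cones held a Clu UMI. The level was higher in rd10-vehicle than in WT cones at a log2 ratio of 0.82 (0.64 to 1.02), against 1.80 for Apoe in the same cells, and between the rd10 libraries the ratio was -0.13 (-0.27 to 0.015).

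Over all neuronal clusters Clu exceeded every reference gene in 10 of 27 pairs and their median in 26 of 27. Those 10 were the 3 libraries of cones, of cluster 3 and of cluster 10, and the OFF cone bipolar-like cluster 8 of WT at 1.34%, where Sox9 stood at 1.33% on 4 UMIs and 1 cell held 3 of the 33 Clu UMIs, so that pair is not told apart from the reference genes. Cluster 3, named ON cone bipolar-like from 7 counted markers of which none was among its 10 leading genes, had 1.70%, 3.34% and 2.98% in WT, rd10-vehicle and rd10-TMB. Unnamed cluster 10 had 1.09%, 2.66% and 2.27%. RBCs, with 0.541%, 1.70% and 1.24%, and rods, with 0.701%, 2.41% and 2.21%, stayed within the range of the reference genes. In RBCs, Gpr37 set the upper end of that range, and 3, 2 and 2 of the 10 reference genes lay at or above Clu in WT, rd10-vehicle and rd10-TMB. In rd10 rods Mlc1 was the only reference gene above Clu, at 2.94% on 9 UMIs in rd10-vehicle and 3.46% on 15 UMIs in rd10-TMB. In the amacrine-like cluster 5 of WT, Clu was counted at 112 CPM (236 UMIs in 139 of 461 cells). Dkk3, at 30.7% of its MG level, was the only reference gene that Clu did not exceed there, so this pair is not among the 10. With the 6 other reference genes Clu exceeded every one in 16 of 27 pairs and their median in 27.

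Abca1 in neurons was not far below the MG level. It exceeded every reference gene in 24 of 27 pairs, with a median of 56.9% of the MG level. In WT 19.6% of the Abca1 UMIs lay in MGs, so the MG reference genes cannot weigh free RNA of this gene from other cells. RBCs were counted at 28.0 CPM in WT (55 UMIs), against 27.5 in rd10-vehicle (72 UMIs) and 27.0 in rd10-TMB (73 UMIs), which is 145%, 97.3% and 98.0% of the MG level. The 3 libraries did not differ within their counting error in RBCs. Cones were lowest among the larger clusters at 4.21, 5.46 and 6.44 CPM on 6, 14 and 14 UMIs. The 3 pairs not above every reference gene were cluster 7 of both rd10 libraries, with 3 UMIs each, and the amacrine-like cluster 9 of rd10-vehicle with 0 UMIs in 62 cells. With the 6 other reference genes the count was 26 of 27.

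Abca8a in neurons was far below its MG level, and Abca6 was at or near 0. Abca8a did not exceed every reference gene in any of 27 pairs, and its percentages ran from 0 to 1.72 on at most 24 UMIs. In cones Abca8a was counted at 9.36 CPM in rd10-vehicle (24 UMIs) and 7.36 in rd10-TMB (16 UMIs). Abca1 stood at 5.46 and 6.44 CPM in the same cells. Abca6 had 0 UMIs in 17 of 27 pairs and at most 2 in the others. In 5 of 27 pairs it exceeded every reference gene, each on 1 or 2 UMIs, and nothing is read from these counts.

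**Figure D5:**
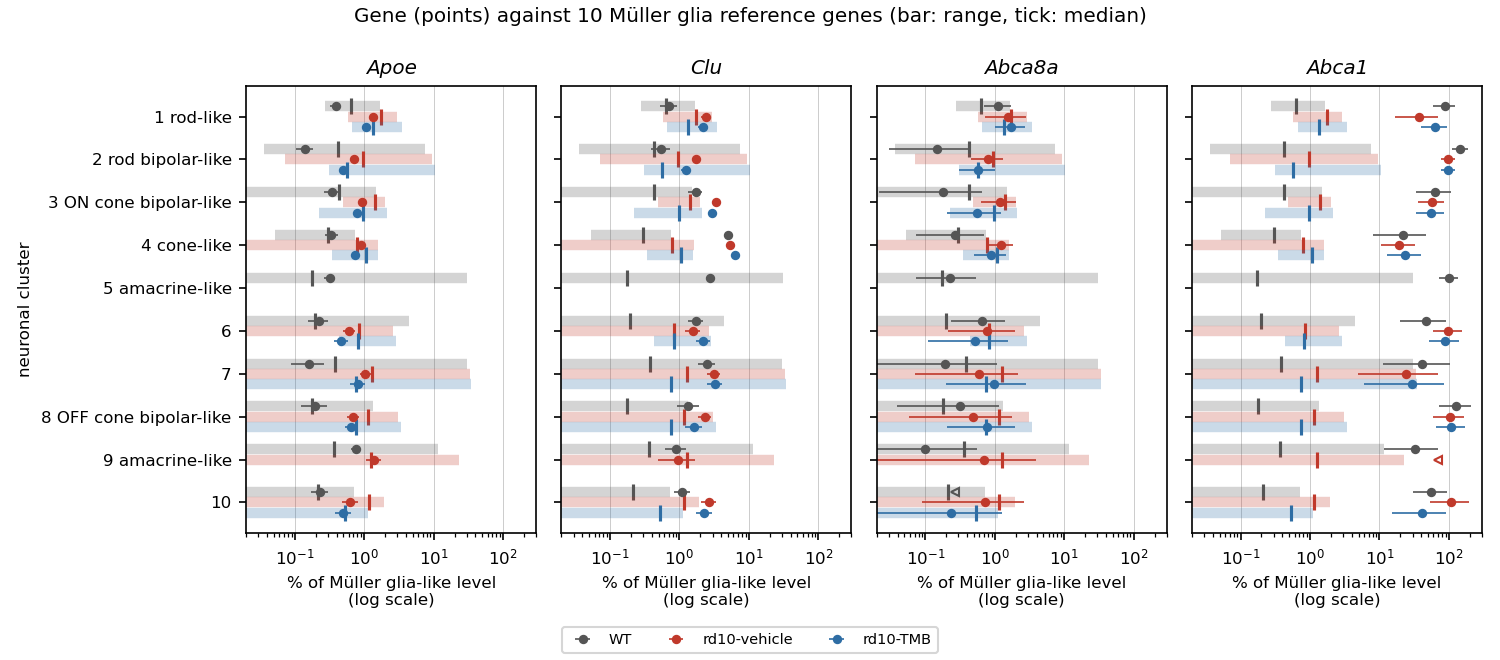
Level in each neuronal cluster (y axis) as a percentage of the Müller glia-like level of the same library (x axis, log scale) for Apoe, Clu, Abca8a and Abca1. Points are the genes with 95% intervals, an open triangle is the upper limit where 0 UMIs were counted, bars span the 10 reference genes and ticks are their medians. Apoe lies within the bars in all 27 pairs, Clu lies to their right in cones (5.01% to 6.32%), and Abca1 lies to the right of nearly all bars.

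The genes with the pattern most like each of the 5 were named from Pearson correlations of log2(CPM + 1) over 35 cluster and library sums with at least 50 cells, among 11025 genes. These are descriptions, and the points share libraries, depth and free RNA. Nearest to Apoe were Cd9 (r = 0.96), a tetraspanin, Dapp1 (0.94) and Trf, which encodes the iron carrier transferrin (0.94). Nearest to Clu were the MG markers Rlbp1 (0.92), a carrier of visual cycle retinoids, Slc14a1 (0.91), a urea transporter, and Pdpn (0.90). Nearest to Abca8a were Popdc3 (0.95), Rlbp1 (0.95) and Rassf10 (0.94), and nearest to Abca6 were Bves (0.86), Bmp3 (0.84) and Paqr6 (0.84). For Abca1 the nearest genes were less alike, Dhrs3 (0.77), Fam32a (0.72) and Tspan4 (0.72).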

How the data were processed

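Raw reads were processed by the authors with Cell Ranger 6.0.1 on mm10, doublets were removed with Scrublet, and cells were filtered, integrated with Harmony and clustered in Seurat 3.2.2 (versions per the labels). The authors deposited natural log values, ln(1 + UMIs per 10000 of a cell), with a cluster, a library and a total count for each of 15242 cells. Whole UMI counts were recovered from these and the deposited counts per cell, with 100% of entries whole within 0.001 UMI. The cells with the fewest genes had 500 and the highest mitochondrial share was 20%. UMIs were summed per cluster and library with Python 3.11.15, numpy 2.4.6, scipy 1.17.1 and pandas 2.3.3. Ratios are log2 of CPM with 1 UMI added, and intervals are exact Poisson, Clopper-Pearson or conditional binomial at 95%. With 1 library per group no test was made, and a call is 1.5-fold with at least 50 UMIs. A cluster was named "-like" from at least 3 markers at 2-fold the other clusters and 20 CPM. Thinning drew 1000 UMIs per cell and left out shallower cells (3, 16 and 21 MGs in WT, rd10-vehicle and rd10-TMB). The 5 genes and the lists were chosen with earlier results of these data known. The genes named are the 5, genes of the 5 lipid lists with at least 50 UMIs, the 10 reference genes and, for each of the 5, the 3 genes of nearest pattern without sex-linked genes. Scaling, pseudocount, cell filters, thinning, reference genes and the sex of WT cells were varied, and levels without the cell richest in a gene and a set of 6 reference genes were chosen after seeing the data. The methods were tested on simulated data.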

Additional observations from a re-analysis of the deposited data

Results flagged for a closer look

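In 7 cases a gene's log2 ratio lay on the other side of 0 in a further cluster than in MGs, with both 95% intervals clear of 0, at least 20 UMIs over both libraries and at least 15 cells in each. Each rests on 1 library on each side, and the difference was not tested. Apoe for rd10-TMB over rd10-vehicle, at -0.01 in MGs, was 0.22 in the endothelial-like cluster 11, 0.12 in the microglia-like cluster 13 and 1.73 in the lens-like cluster 17, where 1025 of the 1342 rd10-vehicle UMIs came from 1 cell. These 3 cases rest on the sign of the MG ratio, which turned in 5 of 9 recomputations, so no opposite direction is read from them. Clu for rd10-TMB over WT, at 0.37 in MGs, was -0.25 in the astrocyte-like cluster 12 (20 WT and 33 rd10-TMB cells). Clu for rd10-TMB over rd10-vehicle, at -0.37 in MGs, was 2.35 in the microglia-like cluster 13, with 64 of 65 rd10-TMB UMIs in 1 cell. Without that cell the rd10-TMB level was 4.6 CPM, below the 52.7 of rd10-vehicle, so this case does not stand either. Abca8a for rd10-TMB over rd10-vehicle, at 0.13 in MGs, was -1.62 in the astrocyte-like cluster 12, on 5 and 45 UMIs. Abca8a for rd10-vehicle over WT, at -0.45 in MGs, was 1.47 in the cone-like cluster 4, on 24 and 4 UMIs, at a level within the reference genes.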

How the results depend on the processing

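No paired analysis was possible because each group had 1 library. Of 135 recomputed MG ratios, 100 stayed within the counting interval, 30 moved beyond it with the same sign and 5 changed sign. The 5 were all Apoe for rd10-TMB over rd10-vehicle (-0.0066 as reported), at 0.013 with median-of-ratios scaling, 0.0074 with totals without mitochondrial and ribosomal protein genes, 0.0025 as a mean over cells, 0.030 without the 5% of cells with the most UMIs and 0.018 after thinning. Abca6 ranged from -1.64 to -1.50 for rd10-vehicle over WT and from -1.24 to -1.02 for rd10-TMB over WT, and Clu from 0.56 to 0.81 and from 0.19 to 0.45. The number of the 5 genes past the limit was the same in 74 of 78 recounts. For rd10-vehicle over WT the higher genes numbered 2 with median-of-ratios scaling (Clu and Abca1), 0 with WT limited to Xist-positive cells that lacked Y-linked UMIs, and 0 at a limit of 2-fold, against 1. For rd10-TMB over WT there was 1 with median-of-ratios scaling, against 0. In neurons, the pairs above every reference gene became 18 for Clu with the 5 highest reference genes, 1 for Abca8a (of 26 pairs) without neuronal cells with at least 3 reference UMIs, and for Abca6 2 after thinning and 8 with the 5 highest reference genes. Without Dkk3, Gpr37, Sox9 and Slc1a3, an alternative chosen after seeing the data, they became 16 for Clu, 10 for Abca6, 26 for Abca1, 0 for Apoe and 0 for Abca8a. Of the 3 nearest genes, Spearman ranking kept 1 for Clu and Abca8a and 0 for the others. Counts limit Abca1 (64 WT MG UMIs) and all clusters of a few cells.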
